A study of Mus musculus with 8 samples.

Results

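The nuclear-encoded subunits of the mitochondrial respiratory chain and of ATP synthase were followed in RNA sequencing libraries of mouse lung, 4 titled high dose and 4 titled model. Members were chosen by gene name: Nduf followed by a, b, c, s or v and a digit, Sdha to Sdhd, and names that begin with Uqcr, with Atp5 or with Cox and a digit from 4 to 8. This pattern matched 87 of the 39290 gene names in the table. Of these, 85 had a mean of at least 1 FPKM (fragments scaled by gene length and library depth) over the 8 libraries, the level from which a gene was tested, and 14418 gene names reached it in all. The 2 names below it were Cox8c, listed at 0 in every library, and Cox7b2, with at most 0.184 FPKM. The lowest member above it, Ndufb4b, had a mean of 4.48 FPKM.

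Complex I takes electrons from NADH and complex II takes them from succinate, and both hand them to ubiquinone in the inner mitochondrial membrane. Complex III passes them on to cytochrome c and complex IV, cytochrome c oxidase, to oxygen, while complexes I, III and IV pump protons that drive complex V, ATP synthase. Most subunits are made from nuclear genes and imported, and the remainder are encoded by mitochondrial DNA. Several subunits of complex IV have a second gene used in particular tissues, such as heart, skeletal muscle, brown fat, testis or the pericytes and smooth muscle of vessels. In lung, alveolar type 2 cells are known for their many mitochondria.

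The high dose group and the model group held 4 libraries each. The title of the series names Platycodin D, a saponin of Platycodon root, and mice with idiopathic pulmonary fibrosis, a scarring lung disease. The sources used here do not give the compound meant by high dose, its amount, the way fibrosis was induced, the strain, sex and age of the mice, or any untreated group. Nothing in the labels says that replicates were separate animals, so the p-values describe variation among these libraries, and part of it may be technical. The codes of the libraries have initials that would suit the reverse assignment of titles, QM for high dose and QH for model, so each direction below would be inverted if the titles had been exchanged. Every library is labelled both as lung tissue and as MLF, a line of mouse lung fibroblasts. Sftpc, which encodes a surfactant protein of the alveolar epithelium, stood at 8448 to 16822 FPKM and Pecam1, an endothelial adhesion molecule, at 191 to 241 FPKM in the 8 libraries, levels of transcripts that belong to epithelium and vessels.

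Relative depth, read from the lowest values, lay between 1.00 and 1.34, and rows without a gene name took 50.02% to 65.2% of the FPKM of a library. Some libraries stood apart by transcripts of other tissues. Nppa, an atrial hormone, had 351 FPKM in high dose replicate 2 and 347 FPKM in model replicate 2, against at most 43.1 FPKM elsewhere. Ucp1, the uncoupling protein of brown fat, had 90.3 FPKM in model replicate 4, 12.2 FPKM in model replicate 2 and 10.4 FPKM in high dose replicate 3, and was at or below 0.180 FPKM in the others. Acta1, skeletal muscle actin, had 593 FPKM in model replicate 4 and at most 0.505 FPKM elsewhere. Across all genes 845 were higher and 616 lower in high dose libraries, 1461 in all or 10.1% of those tested (limma, Benjamini-Hochberg adjusted p under 0.05). Leaving out any single library other than model replicate 2 brought that number to between 693 and 970, and leaving out model replicate 2 brought it to 2148.

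Sequence around the starts of the member genes is shown first, as a description of the set. Of the 79 members outside the tissue isoforms, 66 matched a promoter window of RefSeq, build GRCm38.p6, which spans the start of the gene and is 300 bases long. Motifs of 4 factors known to act on these genes were searched on both strands: CCGGAAG for GABP, CGCANGCG for NRF1, AANATGGC for YY1 and AAGGTCA for the oestrogen-related receptors. The MEF2 box of muscle genes was searched as well. None of these motifs contains another. The NRF1 letters stood in 24 windows (36.4%), against 16.4% of 11127 windows of tested genes and 8.42% of all 27025 windows. The YY1 letters stood in 15 windows (22.7%, against 8.25% and 6.23%), the GABP letters in 16 (24.2%, against 17.2% and 9.12%) and the receptor letters in 8 (12.1%, against 3.26% and 4.66%). The MEF2 letters, in this loose form, stood in 1 window (1.52%, against 2.91% and 3.70%). Of the 66 windows 19 held none of these motifs, among them that of Cox7c, a subunit of complex IV whose level followed the mean of the broad members closely (r = 0.966 over 8 libraries). Whether the motifs bear on the levels was not tested. The median window of these members held 19.5 CpG dinucleotides, against 20 in tested genes and 7 in all windows.

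The windows of 4 members are printed 5′ to 3′ on the strand of the gene, with motif matches in capitals. Ndufs6, an accessory subunit of complex I, is shown because its level followed the mean of the members most closely, and Atp5l, subunit g of ATP synthase, because its window held 4 matches of 3 motifs. The window of Ndufb4 also held 4 matches, and none held more. A stretch that reads the same on both strands was counted once. Cox8a and Cox8b are shown as a pair, the broad and the muscle gene for the same subunit of complex IV. The window of Cox8a held 2 GABP matches and 19 CpG dinucleotides, and that of Cox8b held 0 matches and 2 CpG dinucleotides. Another such pair did not differ in matches. The windows of Cox7a2 (broad) and Cox7a1 (muscle) both held 0 matches, with 20 and 7 CpG dinucleotides. A match is a string of letters and was not tested for binding. On chromosome 13 the Ndufs6 window is chr13:73328433-73328732 (minus strand), on chromosome 9 the Atp5l window is chr9:44920693-44920992 (minus strand), on chromosome 19 the Cox8a window is chr19:7217567-7217866 (minus strand), and on chromosome 7 the Cox8b window is chr7:140900397-140900696 (minus strand).
Ndufs6: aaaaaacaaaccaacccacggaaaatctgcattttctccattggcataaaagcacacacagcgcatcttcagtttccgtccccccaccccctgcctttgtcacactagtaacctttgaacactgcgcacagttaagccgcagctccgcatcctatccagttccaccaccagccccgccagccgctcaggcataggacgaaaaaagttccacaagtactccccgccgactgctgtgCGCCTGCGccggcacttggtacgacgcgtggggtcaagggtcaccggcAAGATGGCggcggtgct
Atp5l: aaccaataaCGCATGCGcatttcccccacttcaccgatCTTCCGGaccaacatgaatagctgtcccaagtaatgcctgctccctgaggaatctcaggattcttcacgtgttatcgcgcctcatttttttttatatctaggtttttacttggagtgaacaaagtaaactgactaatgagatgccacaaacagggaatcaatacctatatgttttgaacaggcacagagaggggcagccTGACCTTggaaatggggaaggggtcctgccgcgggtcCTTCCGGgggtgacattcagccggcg
Cox8a: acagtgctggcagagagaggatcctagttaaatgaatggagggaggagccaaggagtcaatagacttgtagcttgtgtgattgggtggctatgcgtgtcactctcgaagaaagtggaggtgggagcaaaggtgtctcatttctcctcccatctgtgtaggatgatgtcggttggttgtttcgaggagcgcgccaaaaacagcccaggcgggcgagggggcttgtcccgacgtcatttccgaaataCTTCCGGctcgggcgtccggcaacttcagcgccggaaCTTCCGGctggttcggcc
Cox8b: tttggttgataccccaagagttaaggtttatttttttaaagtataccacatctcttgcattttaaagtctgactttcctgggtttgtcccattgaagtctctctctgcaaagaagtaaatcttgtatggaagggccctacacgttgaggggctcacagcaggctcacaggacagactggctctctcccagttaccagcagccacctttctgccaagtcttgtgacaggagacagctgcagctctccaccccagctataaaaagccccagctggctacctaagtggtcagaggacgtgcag

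Between high dose and model libraries none of the 85 members passed the test, against a background of 10.1% of all genes. In limma's fit 7 members had an unadjusted p under 0.05 (8.24%, against 25.6% of all genes), 6 of them higher and 1 lower in high dose libraries. The smallest adjusted p was 0.0842, for Ndufa11. The median log2 fold change, computed on log2(FPKM + 1) values as high dose minus model, was 0.06 for members and 0.04 for all genes. Of the members 54 had a positive and 31 a negative value, against 8246 positive and 6172 negative over all genes. The broad members moved together across libraries (mean Pearson r between pairs 0.618). Counts of signs, here and by complex below, are thus not counts of independent observations. For 58 of 85 members the 95% confidence interval of the change lay within 0.5 log2 units on either side of 0, and for 80 of 85 (94.1%) it lay within 1, against 87.1% of all genes. The median SD within a group was 0.218 log2 units for members and 0.180 for all genes. Without model replicate 2 the fit passed 4 members, all higher in high dose libraries (Ndufa11, Cox6b2, Ndufa4l2 and Atp5g1), against a background of 14.9%. With each other library left out it passed 0.

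**Figure D1:**
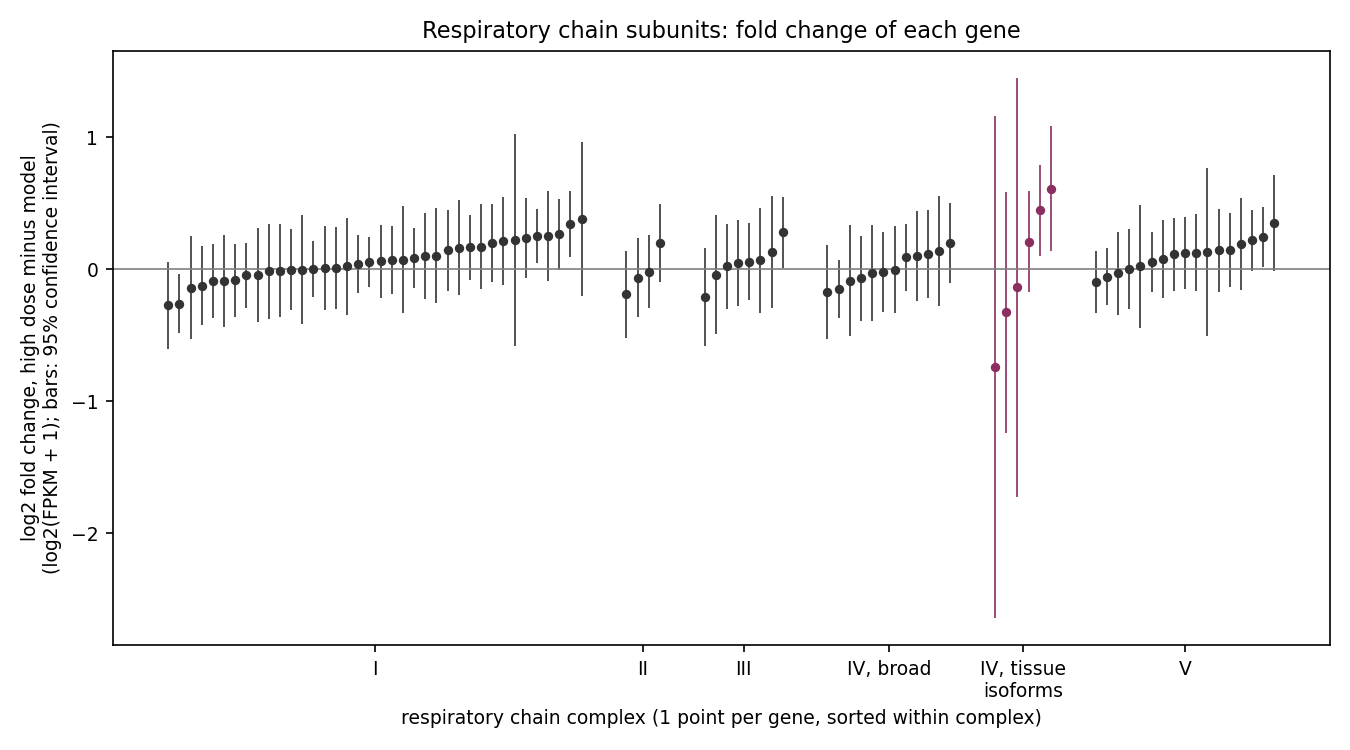
Log2 fold change (high dose minus model, log2(FPKM + 1) scale) of each of the 85 tested members, 1 point per gene sorted within its complex, with bars for the 95% confidence interval. The intervals of nearly all broad members cross 0, and the widest intervals are those of Cox8b, Cox7a1 and Cox6a2 among the tissue isoforms of complex IV, drawn apart.

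The summed level of the 79 broad members was 6147, 6989, 7705 and 7279 FPKM in the high dose libraries, against 5873, 7483, 6011 and 8046 FPKM in the model libraries. The means were 7030 ± 658 FPKM in high dose and 6853 ± 1079 FPKM in model libraries (SD, n = 4 each), a ratio of 1.03, and the groups overlapped. Model libraries spanned the range, with replicates 1 and 3 the lowest and replicate 4 the highest of all 8. By complex, the ratio of the group means, high dose over model, was 1.03 for complex I, 0.984 for complex II, 1.02 for complex III, 1.01 for complex IV and 1.05 for complex V. The median member of complex I had 50.1 FPKM, of complex II 73.4 FPKM, of complex III 70.04 FPKM, of complex V 121 FPKM and of the broad members of complex IV 159 FPKM.

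Complex I had 38 tested members, of which 0 passed, beside a background of 10.1%. Of the 38, 3 had an unadjusted p under 0.05 (7.89%, against 25.6% of all genes). The median log2 fold change of the 38 was 0.06. Its 7 core subunits, which carry the flavin and the iron-sulfur clusters, had a median of -0.05 with 5 negative, and its 29 accessory subunits, which surround the core, had a median of 0.10 with 23 positive. The difference between core and accessory subunits was not tested.

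Ndufv1, which holds the site of NADH oxidation, had 36.3, 46.6, 46.98 and 41.9 FPKM in high dose libraries, against 36.9, 47.5, 40.4 and 60.3 FPKM in model libraries, a log2 fold change of -0.09 ± 0.16 (SE). Ndufs1, an iron-sulfur subunit of the same arm, had 22.01, 26.7, 27.5 and 24.3 FPKM in high dose libraries, against 23.3, 29.3, 23.3 and 28.3 FPKM in model libraries (log2 fold change -0.05 ± 0.11). Groups overlapped for both genes, and both were high in model replicates 2 and 4.

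Among accessory subunits, Ndufa12, which sits on the matrix arm, had the largest positive value, with 19.9, 39.1, 43.02 and 33.5 FPKM in high dose libraries, against 18.7, 32.6, 21.2 and 29.3 FPKM in model libraries (log2 fold change 0.38 ± 0.26, adjusted p 0.403). High dose replicate 1 lay with the low model libraries. The 3 members of the whole set whose groups did not overlap (background 17.7%) were accessory subunits of complex I and are named after their values were seen. Ndufa11, a membrane arm subunit, had 10.5, 11.7, 11.9 and 12.5 FPKM in high dose libraries, against 7.70, 10.3, 8.08 and 10.04 FPKM in model libraries, a log2 fold change of 0.34 ± 0.11 with an adjusted p of 0.0842. Without model replicate 2, its highest model library, the log2 fold change was 0.40 with an adjusted p of 0.0434, in a fit that called 14.9% of all genes. Ndufa3, also of the membrane arm, had 60.9, 67.7, 60.2 and 59.5 FPKM in high dose libraries, against 50.02, 52.8, 46.96 and 58.8 FPKM in model libraries (log2 fold change 0.25 ± 0.09, adjusted p 0.121). Ndufa6, an accessory subunit of the matrix arm, ran the other way, with 73.4, 87.03, 80.8 and 89.1 FPKM in high dose libraries, against 98.5, 95.2, 91.2 and 112 FPKM in model libraries (log2 fold change -0.26 ± 0.10, adjusted p 0.132). None of these differences passed the test over all genes with all 8 libraries. Ndufb4b and Ndufb4c, copies of Ndufb4 with means of 4.48 and 5.60 FPKM, may share reads with it, so their values are uncertain.

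Complex II, succinate dehydrogenase, is made of 4 nuclear-encoded subunits alone, and 0 of 4 passed (background 10.1%). With so few genes that count does not set the complex apart from the background. Sdha, the flavoprotein that oxidises succinate, had 74.5, 87.6, 89.04 and 81.2 FPKM in high dose libraries, against 73.98, 88.03, 77.8 and 111 FPKM in model libraries (log2 fold change -0.06 ± 0.13). Sdhb, the iron-sulfur subunit, had 54.02, 58.6, 68.03 and 65.6 FPKM in high dose libraries, against 57.6, 70.01, 64.7 and 92.1 FPKM in model libraries, the most negative value of the complex at -0.19 ± 0.15 (adjusted p 0.469). Both were highest in model replicate 4, the library with Ucp1 and Acta1, and their other values overlapped. Sdhc, a membrane anchor, had 76.1, 80.4, 98.3 and 88.98 FPKM in high dose libraries, against 63.3, 88.6, 67.5 and 81.2 FPKM in model libraries, the most positive value at 0.20 ± 0.13 (adjusted p 0.389). The other anchor, Sdhd, had a log2 fold change of -0.02 ± 0.12.

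Complex III had 8 tested members, of which 0 passed (background 10.1%), too few genes to differ from the background by that count. Its 3 core members had a median log2 fold change of -0.04 and its 5 accessory members one of 0.07, with all 5 positive. Uqcrc1, a core protein, had 54.7, 71.4, 78.3 and 70.4 FPKM in high dose libraries, against 49.9, 76.4, 64.8 and 97.8 FPKM in model libraries (log2 fold change -0.04 ± 0.20). Uqcrfs1, the Rieske iron-sulfur protein that passes electrons on to cytochrome c1, had 51.7, 60.2, 71.2 and 64.8 FPKM in high dose libraries, against 59.3, 75.8, 60.5 and 94.98 FPKM in model libraries (log2 fold change -0.21 ± 0.16, adjusted p 0.476). Model replicate 4 was the highest library for both. Uqcr11, a small accessory subunit, had 74.1, 74.7, 79.8 and 75.8 FPKM in high dose libraries, against 54.1, 68.2, 54.4 and 75.9 FPKM in model libraries. Its log2 fold change of 0.28 ± 0.12 was the largest of the complex, with an adjusted p of 0.177, and model replicate 4 reached the high dose values.

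The 12 broad members of complex IV had a median log2 fold change of -0.01, with 5 positive and 7 negative. Of them 0 passed, which among so few genes does not differ from the background of 10.1%. Cox4i1, a subunit that takes part in regulation by ATP and the most abundant member of the whole set at a mean of 294 FPKM, had 237, 306, 317 and 312 FPKM in high dose libraries, against 248, 326, 259 and 345 FPKM in model libraries. Its means were 293 ± 37.8 FPKM in high dose and 295 ± 48.2 FPKM in model libraries (SD, n = 4 each). The log2 fold change was 0.00 with a 95% confidence interval of -0.33 to 0.33. Cox5a, on the matrix side, had 86.4, 94.3, 124 and 108 FPKM in high dose libraries, against 83.4, 126, 93.2 and 142 FPKM in model libraries (log2 fold change -0.09 ± 0.19). In both genes the group ranges overlapped. The other broad members lay between Cox5b, at a log2 fold change of -0.17 ± 0.16, and Cox6c, at 0.20 ± 0.13. Cox7a2l, a factor in the assembly of supercomplexes, stood at -0.15 ± 0.10.

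Complex V had 17 members, of which 0 passed, and at this number of genes that is not set apart from the background of 10.1%. A positive log2 fold change was found for 14 of them, against 8246 of 14418 over all genes. The median was 0.12, against 0.04 over all genes. In the catalytic head, Atp5a1 (alpha) had 174, 208, 223 and 204 FPKM in high dose libraries, against 164, 222, 189.8 and 236 FPKM in model libraries (log2 fold change 0.00 ± 0.13). Atp5b (beta), which carries the catalytic sites, had 224, 283, 320.2 and 271 FPKM in high dose libraries, against 195, 304, 231 and 378 FPKM in model libraries (log2 fold change 0.02 ± 0.21). Group ranges overlapped for both. Atp5c1, the gamma subunit at the centre of the rotor, had the most negative value of the complex, with 105, 114, 126 and 125 FPKM in high dose libraries, against 115, 133, 114 and 141 FPKM in model libraries (log2 fold change -0.10 ± 0.10, adjusted p 0.61).

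The 3 genes for subunit c, which forms the rotating ring in the membrane and has the same mature protein from each gene, all had positive values, with a median log2 fold change of 0.25. Atp5g1 had 42.1, 53.7, 53.3 and 43.6 FPKM in high dose libraries, against 32.9, 50.4, 30.3 and 38.3 FPKM in model libraries (log2 fold change 0.35 ± 0.16, adjusted p 0.208). Model replicate 2 lay among its high dose values. Without that library the change was 0.50 with an adjusted p of 0.0334, in a fit that called 14.9% of all genes. Atp5g2 had 94.3, 104, 111 and 116 FPKM in high dose libraries, against 79.4, 98.9, 90.1 and 89.4 FPKM in model libraries (log2 fold change 0.25 ± 0.10, adjusted p 0.16). Atp5g3, the most abundant of them, had a log2 fold change of 0.12 ± 0.12. Atpif1, an inhibitor of ATP synthase outside the name rule, had 43.1, 47.1, 44.1 and 48.5 FPKM in high dose libraries, against 33.1, 42.7, 32.8 and 34.2 FPKM in model libraries (log2 fold change 0.35 ± 0.10, adjusted p 0.0557). It was high in every high dose library, and the lowest of these lay just above the highest model library.

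Tissue isoforms are taken apart from the complexes, beside their broad paralogs. None of the 6 with at least 1 FPKM passed, and 2 had an unadjusted p under 0.05 (33.3%, against 25.6% of all genes). With so few genes that share does not set the isoforms apart from the background. Cox6b2, known as the testis isoform of subunit 6b, had 20.8, 19.5, 20.9 and 15.7 FPKM in high dose libraries, against 11.7, 19.5, 10.1 and 9.28 FPKM in model libraries. Its log2 fold change of 0.61 ± 0.21 had an adjusted p of 0.103, and model replicate 2 was the sole model library within the high dose range. Without that library the change was 0.83 with an adjusted p of 0.00392, in a fit that called 14.9% of all genes. Leaving out the model library nearest to the high dose values widens the difference by itself. Its paralog Cox6b1 had 138, 156, 179 and 169 FPKM in high dose libraries, against 116, 171, 138 and 180.2 FPKM in model libraries (log2 fold change 0.10 ± 0.15).

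Ndufa4l2, a paralog of Ndufa4 that is induced by hypoxia, had 26.5, 30.9, 27.2 and 32.2 FPKM in high dose libraries, against 18.4, 27.7, 16.7 and 23.2 FPKM in model libraries (log2 fold change 0.45 ± 0.15, adjusted p 0.101). Again model replicate 2 alone reached the high dose range. Without it the change was 0.57 with an adjusted p of 0.0202, in the same fit that called 14.9% of all genes. Ndufa4, counted here with complex IV, had 137, 160.2, 196 and 180.1 FPKM in high dose libraries, against 116, 192, 130.0 and 181 FPKM in model libraries (log2 fold change 0.14 ± 0.18). Cox4i2, the lung and vessel isoform of subunit 4, had 44.9, 50.8, 51.4 and 64.1 FPKM in high dose libraries, against 43.2, 63.00, 40.6 and 37.8 FPKM in model libraries (log2 fold change 0.21 ± 0.17, adjusted p 0.495). Its groups overlapped, with model replicate 2 second to high dose replicate 4.

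Cox4i2 and Ndufa4l2 are also markers of lung pericytes, and other markers of these cells were set beside them. Of 12 pericyte markers outside the members, 3 passed (background 10.1%), all higher in high dose libraries: Pdgfrb, a growth factor receptor, at a log2 fold change of 0.71 ± 0.13 (adjusted p 0.0139), Cspg4, a surface proteoglycan, at 0.55 ± 0.13 (adjusted p 0.0299) and Postn, a matrix protein also made by fibroblasts, at 0.47 ± 0.12 (adjusted p 0.044). Their summed level ran from 286 to 323 FPKM in high dose libraries and from 207 to 269 FPKM in model libraries. Their part in the values of Cox4i2 and Ndufa4l2 was not tested, and in bulk tissue fewer cells of a type and less RNA per cell cannot be told apart. Of 14 genes of the hypoxia response, among them the factors Hif1a and Epas1, 0 were higher and 2 lower in high dose libraries, a share near the background of 10.1%. The 2 were Bnip3, a mitophagy receptor (-0.59 ± 0.14, adjusted p 0.029), and Pdk1, a kinase that restrains entry of pyruvate into the citrate cycle (-0.49 ± 0.11, adjusted p 0.0292).

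The 3 isoforms of heart and skeletal muscle differed between libraries far more than between groups. Cox6a2 had 10.5, 36.9, 17.1 and 14.5 FPKM in high dose libraries, against 15.4, 37.4, 16.6 and 26.2 FPKM in model libraries (log2 fold change -0.33 ± 0.40). Cox7a1, also a brown fat isoform, had 3.82, 10.4, 10.01 and 2.98 FPKM in high dose libraries, against 1.74, 15.2, 3.03 and 18.7 FPKM in model libraries (log2 fold change -0.14 ± 0.69), a span of 10.7 times from lowest to highest. Both groups held high and low libraries for each gene, with replicate 2 the highest of either group for Cox6a2. Cox8b, likewise of muscle and brown fat, had 1.80, 8.15, 12.1 and 2.34 FPKM in high dose libraries, against 3.44, 10.3, 2.88 and 43.6 FPKM in model libraries (log2 fold change -0.74 ± 0.83, adjusted p 0.635), a span of 24.3 times. Their paralogs were far steadier. Cox6a1 had 205, 245, 299 and 255 FPKM in high dose libraries, against 211, 257, 232 and 331 FPKM in model libraries (log2 fold change -0.03 ± 0.16). Cox7a2 had 69.1, 66.6, 60.2 and 83.4 FPKM in high dose libraries, against 61.4, 79.3, 62.7 and 80.3 FPKM in model libraries (log2 fold change -0.02 ± 0.13). Cox8a had 219.6, 216, 240.1 and 238 FPKM in high dose libraries, against 192, 207, 202 and 263 FPKM in model libraries (log2 fold change 0.09 ± 0.11). None of these paralogs varied by more than 1.61 times over the 8 libraries.

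**Figure D2:**
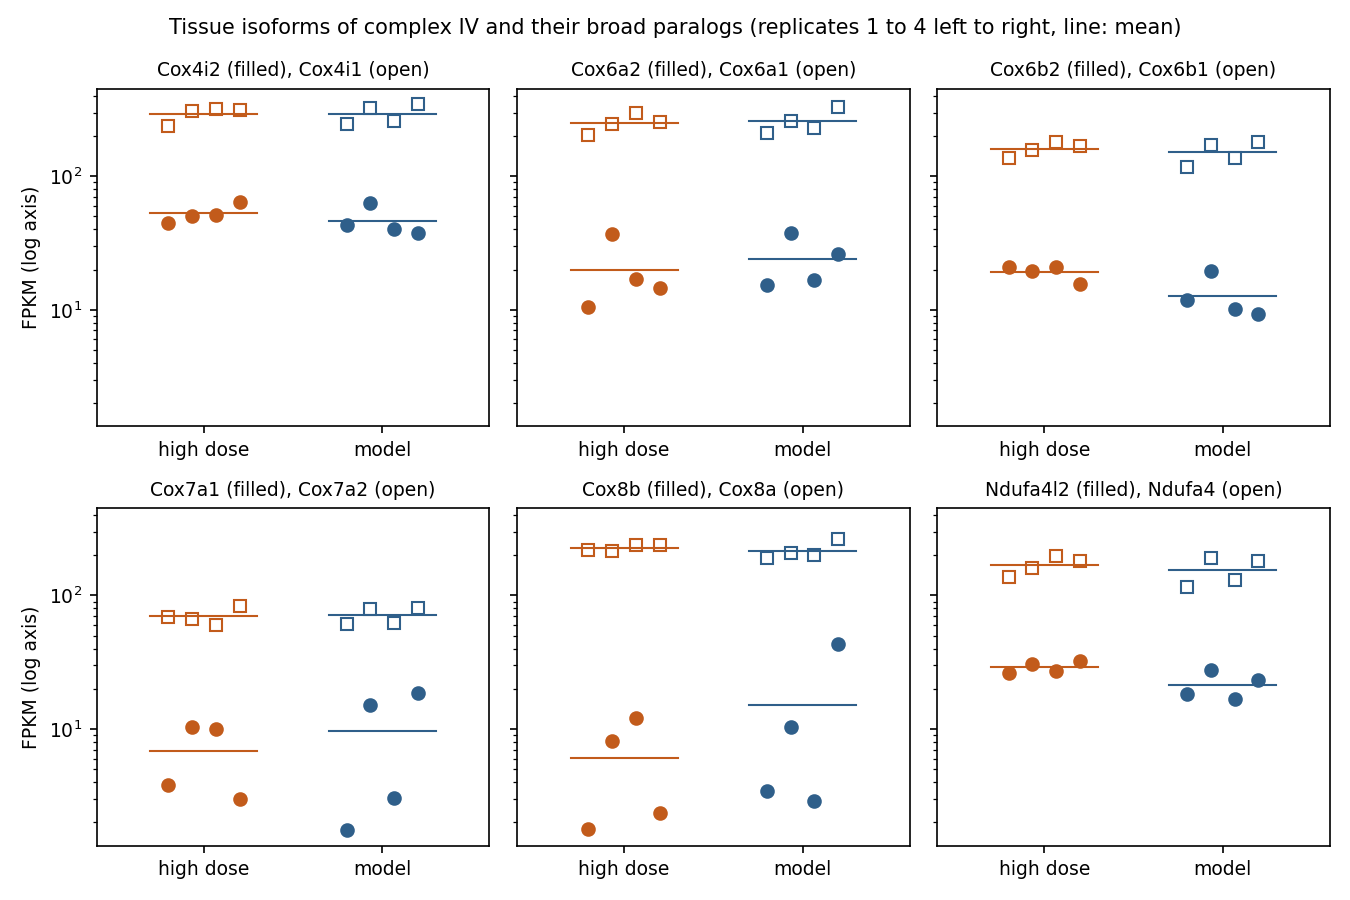
FPKM (log axis) of the 6 tissue isoforms (filled circles) and their broad paralogs (open squares) in the high dose (left) and model (right) libraries, replicates 1 to 4 from left to right, with a line at the mean. Cox6b2 and Ndufa4l2 lie higher in high dose libraries apart from model replicate 2, while Cox7a1 and Cox8b span 10.7 and 24.3 times over libraries of both groups.

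Markers of heart, fat and skeletal muscle also differed between libraries, and not all of them in step with these 3 isoforms. Model replicate 4 was highest for Cox7a1 and Cox8b. Of the cardiac and striated muscle markers, Nppa (1.38 FPKM), Tnnt2 (29.6 FPKM) and Myl7 (35.4 FPKM) were at their lowest there. Mb (137 FPKM) and Ckm (263 FPKM), of the same list, were at their highest. The 2 libraries with the highest Cox6a2, high dose replicate 2 and model replicate 2, were those with the highest Nppa. The 4 libraries with the highest Cox8b and Cox7a1 were those 2, high dose replicate 3 and model replicate 4, and the last 2 had Ucp1 at 10.4 and 90.3 FPKM with Nppa at 43.1 and 1.38 FPKM. Of 18 cardiac and striated muscle markers tested, 0 passed (background 10.1%). Their summed level ran from 242 to 1463 FPKM in high dose libraries and from 347 to 1723 FPKM in model libraries. Of 10 adipocyte markers tested, 0 passed, beside the same background. Their sums were 77.4 to 425 FPKM in high dose libraries and 118 to 1245 FPKM in model libraries. Ucp1 was at 0 in high dose replicates 1, 2 and 4. Fast skeletal muscle markers, a list added after the values were seen, summed to between 6.31 and 11.5 FPKM in high dose libraries and between 6.53 and 1495 FPKM in model libraries, with model replicate 4 at the top. With model replicates 2 and 4 and high dose replicates 2 and 3 left out, 0 members passed among 2 and 2 libraries. This choice was made after seeing the data, and the fit called 4.19% of all genes. The median log2 fold change of the members was 0.21, against 0.03 over all genes. Model replicates 1 and 3, which remained, had the lowest median deviations of the broad members among the 8 libraries (-0.23 and -0.18). High dose replicates 1 and 4, which also remained, had -0.14 and 0.07. The positive median is therefore not read as a group difference, and the part of the choice of libraries in it was not tested. The part of these tissues in the values of the members was not tested.

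**Figure D3:**
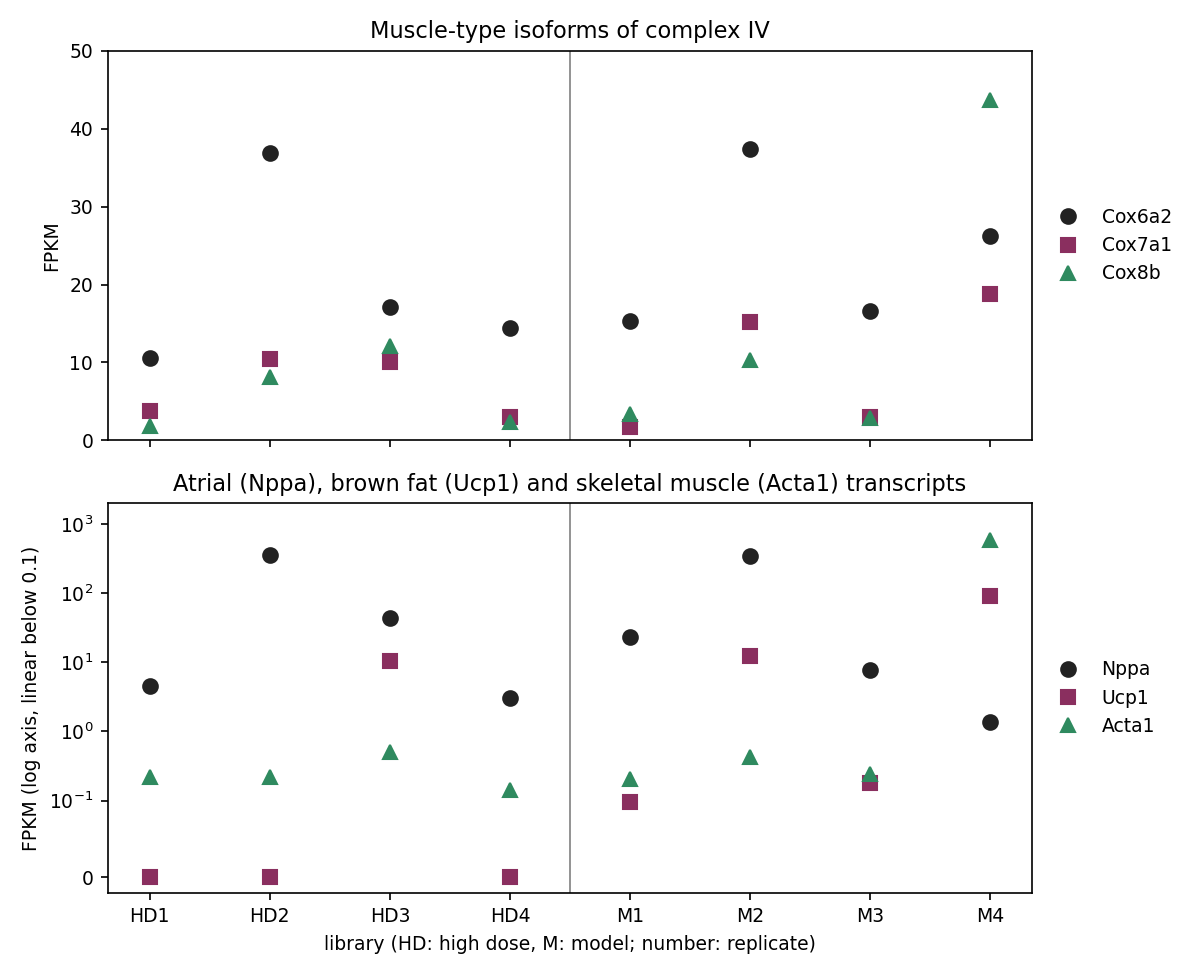
FPKM of Cox6a2, Cox7a1 and Cox8b (upper panel) and of Nppa, Ucp1 and Acta1 (lower panel, log axis that is linear below 0.1) in each library, high dose (HD) left of model (M). Cox6a2 is highest in HD2 and M2, where Nppa is 351 and 347 FPKM, and Cox8b is highest in M4, where Ucp1 is 90.3 and Acta1 593 FPKM.

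The share of each tissue isoform in the sum with its paralog does not depend on the scaling of a library. Ndufa4l2 made up 14.9% ± 1.90 of its pair in high dose and 12.3% ± 1.12 in model libraries (SD, n = 4 each; exact two-sided permutation p = 0.0857, adjusted over 6 pairs 0.343). Cox6b2 made up 10.8% ± 1.91 in high dose and 7.80% ± 2.40 in model libraries (exact permutation p = 0.114, adjusted 0.343). Cox4i2 made up 15.3% ± 1.46 in high dose and 13.6% ± 2.72 in model libraries (exact permutation p = 0.371, adjusted 0.583). The means of the other 3 shares were lower in high dose libraries. Cox8b made up 2.55% ± 1.98 in high dose and 5.54% ± 5.99 in model libraries (exact permutation p = 0.429, adjusted 0.583). Cox7a1 made up 9.12% ± 5.57 in high dose and 10.6% ± 8.09 in model libraries (exact permutation p = 0.657, adjusted 0.657). Cox6a2 made up 7.18% ± 3.95 in high dose and 8.38% ± 2.90 in model libraries (exact permutation p = 0.486, adjusted 0.583). No pair had an adjusted p under 0.05, and the smallest p that the 70 splits of 4 against 4 allow is 0.0286.

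The broad members moved together across libraries. The mean Pearson correlation between pairs of the 79 members over 8 libraries was 0.618, and 0.696 once group means were removed, against 0.0197 and 0.0146 for pairs of all genes. These values share libraries, depth and tissue makeup. Without model replicate 4 they were 0.607 and 0.641 for the members. In model replicate 4, 72 of 79 members lay above their own mean, in high dose replicate 3 it was 73, and in model replicate 2 it was 67. In model replicate 3 it was 4, in model replicate 1 it was 5 and in high dose replicate 1 it was 9. The median deviation of the members from their 8-library mean was -0.14, 0.03, 0.14 and 0.07 log2 units in the high dose libraries, against -0.23, 0.12, -0.18 and 0.22 in the model libraries, while that of all genes stayed between -0.06 and 0.04. Summed levels of citrate cycle enzymes and of import and channel proteins were also lowest in high dose replicate 1 and model replicates 1 and 3. Both sums were highest in high dose replicate 3 and model replicates 2 and 4, so the pattern was not particular to the members. Glycolytic enzymes differed, with model replicate 3 (1160 FPKM) above high dose replicate 2 (1053 FPKM). The low and high libraries of the members thus lay in both groups, with the wider range among model libraries.

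**Figure D4:**
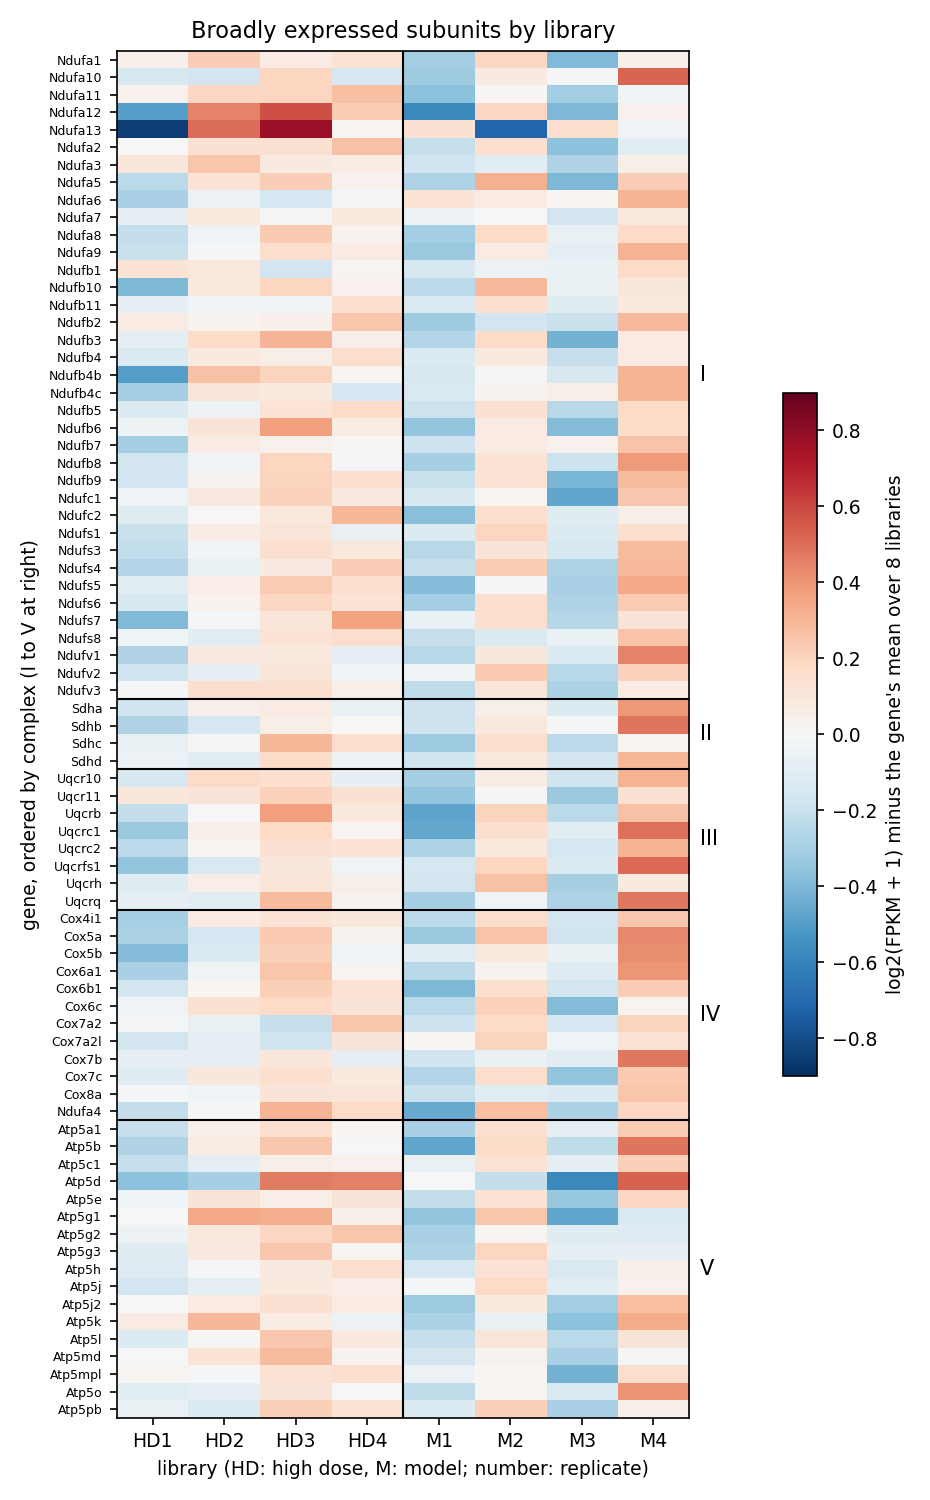
Log2(FPKM + 1) of 78 of the 79 broad members in each library minus the mean of the gene over 8 libraries (colour), with high dose (HD) libraries left of model (M) libraries and genes ordered by complex. Whole columns share a colour: HD1, M1 and M3 are low for most genes and HD3, M2 and M4 high.

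This pattern ran through all 5 complexes: model replicate 4 was above the mean for 35 of 38 members of complex I, 4 of 4 of complex II, 8 of 8 of complex III, 12 of 12 of complex IV and 13 of 17 of complex V. A few members departed from it. Ndufa13, an accessory subunit of complex I, had the lowest correlation with the mean of the broad members (0.162 over 8 libraries). It had 22.04, 57.6, 69.5 and 41.1 FPKM in high dose libraries, against 44.6, 24.2, 45.3 and 39.5 FPKM in model libraries, and its lowest values were in high dose replicate 1 and model replicate 2. Ndufb1 (0.258), Ndufa6 (0.283) and Cox7a2l (0.360) also had low correlations with that mean. Atp5d, the delta subunit, followed the mean more closely (0.697) but spanned 2.17 times over the 8 libraries. It had 75.4, 79.5, 136 and 135 FPKM in high dose libraries, against 98.2, 84.04, 65.1 and 142 FPKM in model libraries, with high and low libraries in each group. These members are named here after their values were seen. The 3 genes outside the set that followed the mean of the broad members most closely were Ghitm, Hadh and Smoc2. Ghitm is a protein of the inner mitochondrial membrane (Pearson r = 0.983 over 8 libraries). Hadh is an enzyme of fatty acid oxidation (0.964), and Smoc2 is a secreted matrix protein (0.963). They were picked as the highest among all other tested genes, and over 8 libraries such a pick gives high values by itself. A link to the members was not tested. Ghitm had 69.8, 76.03, 79.7 and 76.3 FPKM in high dose libraries, against 67.01, 79.3, 69.1 and 85.3 FPKM in model libraries.

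Fold changes were also set beside transcript length. Over 74 of 79 broad members with a length in the GENCODE M21 annotation, the Spearman correlation of length with log2 fold change was -0.33, against -0.01 over 13030 genes. This is a description across genes, which are not replicates. The 37 members up to the median length (median 545 bases) had a median log2 fold change of 0.10 with 28 positive, and the 37 longer ones (median 977 bases) had 0.00 with 20 positive. Among other genes up to that length 56% were positive, against 57.9% of those above it. The part of length in the values of the members was not tested.

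Other genes of mitochondrial energy metabolism were read from lists chosen with earlier results of these data known. Of 6 tested subunits outside the name rule, among them Cyc1, the cytochrome c1 of complex III (log2 fold change 0.08 ± 0.16), and Ndufab1, the acyl carrier protein of complex I (0.10 ± 0.20), 0 passed. Of the assembly factors, 0 of 18 for complex I, 0 of 9 for complexes II and III, 0 of 25 for complex IV and 0 of 4 for complex V passed, with median log2 fold changes of 0.03, 0.06, 0.04 and 0.10. Among 14 regulators of mitochondrial biogenesis 0 passed, with a median of -0.05. Ppargc1a, the coactivator PGC-1 alpha, had 1.11, 1.55, 0.972 and 0.71 FPKM in high dose libraries, against 1.26, 1.62, 0.75 and 2.22 FPKM in model libraries, highest in model replicate 4. Tfam, the factor that packages and transcribes mitochondrial DNA, had a log2 fold change of 0.02 ± 0.09. Likewise 0 of 17 enzymes of the citrate cycle, 0 of 25 import and channel proteins and 0 of 15 glycolytic enzymes passed. Their medians were -0.05, 0.01 and -0.14. Each list of this paragraph stands beside the background of 10.1%.

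The 13 subunits encoded by mitochondrial DNA are not analysed here. The ribosomal RNA mt-Rnr1 of the mitochondrion, looked up after the values were seen, had 287, 293, 305 and 252 FPKM in high dose libraries, against 365, 671, 221 and 561 FPKM in model libraries (log2 fold change -0.56 ± 0.31, adjusted p 0.3). Model replicates 2 and 4 were its highest libraries and model replicate 1 the third highest, and its groups overlapped.

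Some cell type markers of the lung differed between the groups, with a background of 10.1% of all genes called. Of 10 alveolar type 2 markers 6 passed, all higher in high dose libraries, with sums of 14932 to 21448 FPKM in high dose libraries and 11001 to 16309 FPKM in model libraries. Of 13 neutrophil markers 10 were lower and 1 higher in high dose libraries, with sums of 639 to 853 FPKM in high dose libraries and 1306 to 3024 FPKM in model libraries. Of 10 endothelial and 10 airway ciliated cell markers 0 passed in either list, and of 10 fibroblast markers 1 was higher, a share near the background. The part of these cell types in the levels of the respiratory chain was not tested.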

How the data were processed

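RNA sequencing of 8 mouse lung libraries was read from the deposited table, 48632 rows by 8 columns. Per the labels' protocols, libraries were made from total RNA with a SMARTER mRNA kit, and per the submitters' processing notes the genome build was mm39. No aligner, counter or annotation is given in the sources used here. The header names no unit, and the deposited values were read as FPKM from their decimals and their differing column sums. FPKM carries no counts, so no count model was fitted and precision rests on the 4 libraries per group.

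The 41617 rows with a gene name were summed per name, and names with a mean of at least 1 FPKM were fitted as log2(FPKM + 1) with limma 3.58.1 in R 4.3.3 (group as the only term, trended and robust variances), with Benjamini-Hochberg adjustment over 14418 genes. The pseudocount of 1 makes fold changes (high dose minus model) of low genes too small. For 4 members several rows were summed (Ndufa7, Ndufs3, Uqcrc1 and Atp5a1), and how reads were divided among those rows is uncertain. The fit was tested on simulated data. Members and lists were chosen with earlier results of these data known. Values in every library were to be given for members past the threshold, tissue isoforms and their paralogs, catalytic core subunits, and the largest rise and fall of each complex. The values of 1 member that this rule took are not reported here, though it is counted. Figures were drawn with matplotlib 3.10.9. The files' coordinates were not used, since the reference genome given was not mm39.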

Additional observations from a re-analysis of the deposited data

Results flagged for a closer look

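In 80 groups of 4 values (the named members, the summed levels of complexes and isoforms, and the isoform shares, in high dose and in model libraries) each extreme value was compared with its neighbours by the Dixon criterion, and 3 stood apart. Chance flags about 1 group in 20. Cox4i1 had 236.7 FPKM in high dose replicate 1, below 306 to 317 FPKM in the other high dose libraries. The share of Cox6a2 in its pair with Cox6a1 was 13.1% in high dose replicate 2, above 4.87% to 5.39% in the other high dose libraries. The same share was 12.7% in model replicate 2, above 6.69% to 7.34% in the other model libraries. These 2 libraries also held the most Nppa, as given above, and the part of heart transcripts was not tested.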

How the results depend on the processing

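The number of respiratory chain members that passed was 0 under every alternative apart from leaving out model replicate 2. With 1 library left out in turn it ran from 0 to 4 in all, from 0 to 1 in complex I, from 0 to 2 in complex IV and from 0 to 1 in complex V, and the median log2 fold change of the members ran from -0.01 without model replicate 3 to 0.12 without model replicate 4. Over those fits the median of complex V stayed positive (0.03 to 0.19), whereas those of complexes I to IV took either sign. Under quantile normalization and median centring, each complex median kept its sign, and the median of all genes shifted by -0.02 under each. Across all genes, 845 were called higher and 616 lower. With 1 library left out the numbers ran from 364 to 1178 higher and from 329 to 970 lower. Without the filter on low values 518 were higher. With the 4 libraries of high Ucp1 or Nppa left out, a choice made after seeing the data, 254 were higher and 349 lower, among fewer samples. With the replicate number as a block, 486 were higher and 469 lower and 0 members passed. Same-numbered libraries had correlations of deviations of 0.15, 0.28, -0.07 and -0.09, against -0.35 to 0.21 for libraries of different numbers. These few values cannot decide whether the numbers pair the samples, and the main fit did not pair them. Of 627 recomputed fold changes of 33 members, 42 changed sign, all with an unadjusted p of at least 0.05, and 4 passed the threshold anew (Ndufa11, Cox6b2, Ndufa4l2 and Atp5g1 without model replicate 2). Without high dose replicate 3, the share of Ndufa4l2 in its pair differed by 3.61 percentage points, against 2.69 with all libraries. The exact permutation p was 0.0286, the smallest that 35 splits allow, and was not adjusted over the 6 pairs. High dose replicate 3 (12.2%) was the sole high dose library within the model range (11.4% to 13.7%). Leaving it out widens the difference by itself. The cause of these changes was not tested. With no counts in the files, sampling error of single values is unknown.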
